A study of Mus musculus with 45 samples.

Results

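GFP+ve cells sorted from the small intestine of E16.5 Lgr5-DTReGFP embryos were compared between Lgr5 KO and Lgr5 HE embryos, which are 4 of the 45 samples of the series and 4 of its 15 samples of sorted cells. All columns that the labels name as E16.5 HE or KO pools were taken, and genes on X and Y were left out of every count, since the labels do not give the sex of the pooled embryos. In this knockin line Lgr5 is disrupted by an inserted fusion of eGFP with the receptor for diphtheria toxin. HE embryos carry 1 copy of it and KO embryos have it in both alleles, so that cells of both genotypes report Lgr5 promoter activity by their fluorescence and no wild-type cells were part of the comparison. HE pool 1 (7 embryos) and KO pool 1 (2 embryos) came from litter 85, and HE pool 2 (8 embryos) and KO pool 2 (6 embryos) from litter 97. These litters are called litter 1 and litter 2 here. Whole small intestines were dissociated, doublets were gated out and green cells were sorted, and RNA was sequenced from each pool.

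Lgr5 is a receptor for R-spondins, secreted proteins that raise Wnt signaling, and marks the cells that later become the stem cells of the crypts. At this stage the intestinal tube is forming its first villi, whose epithelium begins to express genes of nutrient absorption, while proliferating progenitors stay between the villi. The epithelium lies on a mesenchyme with fibroblasts, smooth muscle, vessels, macrophages and nerve cells.

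The pools held 1275949 (HE pool 1), 1982485 (HE pool 2), 2611302 (KO pool 1) and 2518811 (KO pool 2) reads counted on genes, as the steps between the deposited CPM values (counts scaled to the same total in each pool) show. A single read was worth 0.784 CPM in HE pool 1 and 0.383 CPM in KO pool 1, so HE pool 1 gives the least precise values. Paired values are given for pool 1 and then pool 2. Lgr5 itself was at 104.25 and 125.1 CPM in HE and at 64.75 and 51.65 CPM in KO. Both KO values lay below both HE values, a difference of -0.97 on the log2(CPM + 1) scale (SE 0.18, limma adjusted p = 0.0795). Reads were counted over the whole gene, and which exons they came from is not given by the table.

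The sorted cells carried the markers of intestinal epithelium in all 4 pools. Epcam, an adhesion protein of epithelia, was at 1279 and 1217.2 CPM in HE and at 1274.8 and 1123.2 CPM in KO. The intestinal transcription factor Cdx2 was at 149.7, 171, 190.35 and 208.85 CPM in HE pools 1 and 2 and KO pools 1 and 2. Stem cell markers were present as well. Olfm4 was at 152.05 and 164.45 CPM in HE and at 246.65 and 229.5 CPM in KO, and Ascl2 had a mean of 8.88 ± 0.318 CPM (SD, 2 pools) in HE and of 8.6 ± 0.778 CPM in KO. Cdx2, Olfm4 and Ascl2 are shown here as markers and were not selected by their change. Markers of other cell types were also read.

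Of the 16734 genes tested outside X and Y, 87 were called between KO and HE (0.520%), at a false discovery rate of 0.1 and a fold change above 1.5 in limma. A total of 15 were higher in KO (0.0896%) and 72 lower (0.430%). The fit itself held the genes on X and Y, and with these left out before it 139 genes were called (29 higher and 110 lower). The adjusted p of most calls lay close to the limit, and in limma 0 genes were called without HE pool 1 (2120 at an unadjusted p under 0.05), 0 without HE pool 2 (2470) and 0 without KO pool 1 (775), while 6 were called without KO pool 2, 3 of them among the 87. On reads recovered from the CPM, edgeR called 298 genes and DESeq2 112 with all 4 pools, and DESeq2 kept 65 of the 87. With the litter as a block in the same fit 795 genes were called (4.75%), 265 higher (1.58%) and 530 lower (3.17%), all 87 genes among them. The block leaves each difference unchanged in this balanced design, so the direction of the 87 could not differ. The fit with the block has 1 residual degree of freedom, and limma took each variance wholly from the trend over all genes (its prior degrees of freedom were infinite), so p-values with the block do not measure how far the litters differed for the gene itself. Genes higher in KO made up 17.2% of the calls, and with TMM scaling (4 higher and 65 lower) they made up 5.8%. With the litter block they made up 33.3%, and in 1 fit of all 15 sorted-cell libraries 49.7% (606 higher and 614 lower). That fit also holds E18.5 HE cells, adult Lgr5-DTReGFP HE duodenum and ileum, and adult Lgr5-Cre HE and conditional KO ileum. Its variance comes from these other ages, gut regions and lines as well. The count therefore depends on the settings and on each pool. The median difference over all tested genes was 0.08 on the log2 scale, and 9662 of the 16734 genes were higher in KO and 7072 lower, which is the background for the counts of higher and lower genes in the lists. The filter (2 or more pools at 1 CPM) fixes the direction of a gene that reaches 1 CPM only in the pools of 1 genotype. Among list members, Hand1, Sfrp2 and C1qa, for example, were lower in this way, and Foxa2 higher.

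The litters were also compared one by one, as KO minus HE on log2(CPM + 1), with 1 pool a genotype and therefore no test. In litter 1, 2552 genes were past 1.5-fold higher (15.3%) and 2865 lower (17.1%). In litter 2 the counts were 2535 higher (15.1%) and 2038 lower (12.2%). This balance changed with TMM scaling (2247 and 2239), with median scaling (2112 and 2575) and with every gene that has a nonzero pool tested (3358 and 4057). Median scaling also turned the balance in litter 1 (2868 higher and 2670 lower). Past 1.5-fold in both litters were 688 genes higher (4.11%) and 972 lower (5.81%). All 72 genes called lower were lower in both litters, with a median difference of -2.01 in litter 1 and -1.25 in litter 2, and in 55 of them the difference was larger in litter 1, as in 9051 of all 16734 tested genes. They were selected on the same 4 pools. The 15 genes called higher had medians of 0.92 in litter 1 and 1.19 in litter 2.

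**Figure D1:**
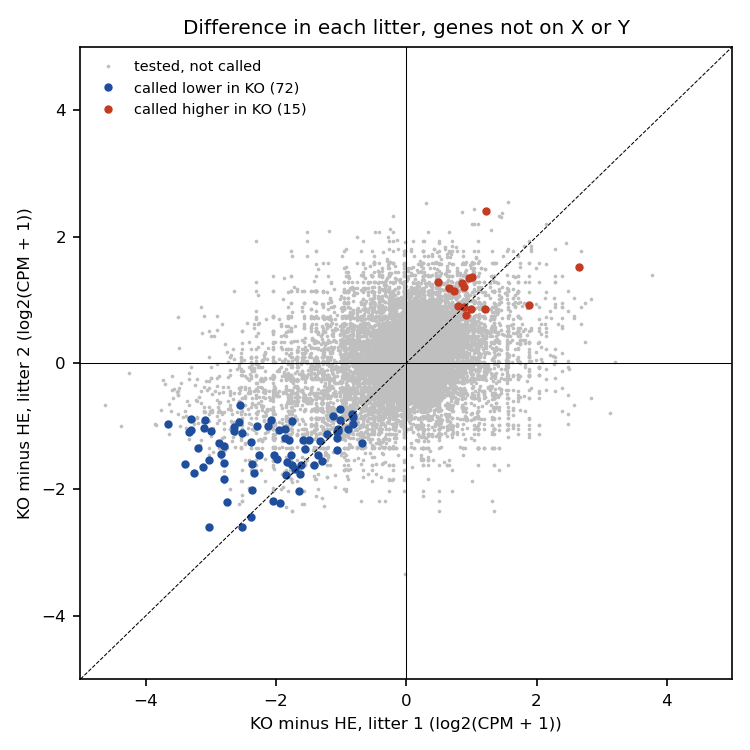
KO minus HE in litter 1 (x axis) against litter 2 (y axis), on the log2(CPM + 1) scale, with 1 point for each of the 16734 tested genes not on X or Y. The 72 genes called lower (blue) and the 15 called higher (red) lie on the same side of 0 in both litters, and many of the blue points lie further from 0 in litter 1; the dashed line marks equal differences.

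Some genes of absorptive enterocytes were called lower in KO. Of the 22 tested genes of this lineage 6 were called lower and none higher, and their median difference was -0.67, beside 0.08 over all tested genes. The median was -0.65 in each litter. In RNA from sorted pools a change in the number of cells of a type and a change in RNA per cell cannot be told apart. With the litter block 10 were called lower. Prdm1 and Dpp4 had positive differences and were not called. Markers of mesenchyme (median -1.57), leukocytes (-1.37) and red cells (-1.43) were lower in the same KO pools, and their part in this result, and in those on retinoid metabolism and chemokines, was not tested.

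Of the 6 called genes of the list 5 code for fatty acid carriers or apolipoproteins. Fabp1, a carrier of fatty acids in the cytosol, was at 496.9 and 333.45 CPM in HE and at 138.65 and 112 CPM in KO. Both KO pools were below both HE pools, a difference of -1.70 (SE 0.19, limma adjusted p = 0.0198). The intestinal carrier Fabp2 was at 605.85 and 600.8 CPM in HE and at 293 and 282.7 CPM in KO (-1.07, SE 0.13, limma adjusted p = 0.0213). The pools of a genotype differed little for this gene, and the litters gave -1.05 and -1.08.

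The apolipoproteins Apoa1, Apoc3 and Apoa4, which coat the lipid particles that enterocytes secrete, are neighbours on chromosome 9 of GRCm38. Apoa1 (46228580 to 46230466) was at 181.85 and 126.65 CPM in HE and at 73.55 and 42.5 CPM in KO, a difference of -1.42 (limma adjusted p = 0.0701). Apoc3 (46232933 to 46235636, on the minus strand) was at 35.3 and 34.85 CPM in HE and at 8.45 and 6.75 CPM in KO, a difference of -2.08 (SE 0.28, limma adjusted p = 0.0384). Apoa4 (46240696 to 46243459) was at 444.4 and 247.2 CPM in HE and at 135.2 and 77.05 CPM in KO, a difference of -1.69 (limma adjusted p = 0.0677). For all 3 genes both KO values lay below both HE values. Apob, which forms the backbone of these particles and was the most abundant gene of the list, was at 981.25 and 766.75 CPM in HE and at 698.9 and 605.45 CPM in KO and was not called (-0.41, limma adjusted p = 0.288).

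Lct, the lactase of the brush border, was at 159.1 and 102.95 CPM in HE and at 44.85 and 43.7 CPM in KO, and fell by 1.51 on the log2 scale (limma adjusted p = 0.0386). The same direction was seen in 2 genes of retinoid metabolism. Adh1, an alcohol dehydrogenase that also oxidises retinol, was at 123.05 and 88.8 CPM in HE and at 23.75 and 25.85 CPM in KO (-2.03, SE 0.20, limma adjusted p = 0.0135). Rbp2, the retinol-binding protein of enterocytes, was at 250.05 and 184.15 CPM in HE and at 79.7 and 44.5 CPM in KO (-1.83, limma adjusted p = 0.0386). Of the 13 tested genes of retinoid metabolism these 2 were called lower (4 with the litter block), and the median of the list was -0.55.

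Genes of the intestinal transcription factor network did not fall with them. All 18 tested gut transcription factors had a positive difference on the CPM scale, with a median of 0.35, and none was called (2 were called higher with the litter block, Foxa1 and Gata4). Foxa2, part of this count and median, reached 1 CPM only in the KO pools, so the filter fixed its direction. Hnf4a, a nuclear receptor that activates enterocyte genes and the most abundant of the list, was at 351.9 and 376.8 CPM in HE and at 496.35 and 475.65 CPM in KO (0.42, limma adjusted p = 0.219). In promoters of the named called genes that belong to a list, 2 motifs were searched on both strands. A window of 300 bases from RefSeq (GRCm38.p6) was at hand for 21 of 27 genes. The TCF/LEF letters CTTTGAT and the HNF4 letters CAAAGTCCA were found in 0 of the 21 windows, where 3.73% and 0.475% of the 32851 windows in the table hold them. The search says nothing of the factors themselves.

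Most tested genes of the goblet and Paneth cell lists had higher values in KO, with 1 call in each. Of the 13 tested goblet cell genes 1 was called higher, none lower (6 higher and 1 lower with the litter block), and the median was 0.88 (1.13 in litter 1 and 0.30 in litter 2). Fcgbp, a protein of the mucus, was at 149.7 and 131.7 CPM in HE and at 347 and 239.4 CPM in KO (1.03, SE 0.18, limma adjusted p = 0.0701). The secreted mucin Muc2 was at 33.75 and 16.65 CPM in HE and at 65.15 and 30.2 CPM in KO. The genotypes overlapped for Muc2, which was chosen after its values were seen and was not called (limma adjusted p = 0.348; with the litter block it was called, limma adjusted p = 0.0134). Zg16, a lectin of the mucus, went the other way, with 4.75 and 3.55 CPM in HE and 0 in both KO pools. Zg16 reached 1 CPM only in the HE pools, so the filter fixed its direction. Its HE mean was 3.49-fold the level of 3 reads in KO pool 2 (1.19 CPM), with no allowance for counting error in HE. A count of 0 allows up to these 3 reads. Zg16 was called only with the block (limma adjusted p = 0.00482, and 0.102 without it).

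Of the 13 tested Paneth cell genes 1 was called higher and 7 with the litter block, and their median was 0.86. Defa29 was at 8.65 and 7.1 CPM in HE and at 59.75 and 22.25 CPM in KO. The defensin Defa24 was at 39.2 and 36.35 CPM in HE and at 104.2 and 62.75 CPM in KO (1.08, limma adjusted p = 0.104; 1.12e-05 with the litter block). Lyz1, the lysozyme of Paneth cells, had a mean of 12.1 ± 6.29 CPM (SD, 2 pools) in HE and of 37.6 ± 15.1 CPM in KO (1.60, limma adjusted p = 0.125; 1.18e-05 with the litter block). Both KO pools exceeded both HE pools for these 3 genes, and in litter 1 the median of the list was 1.21, in litter 2 0.47. Defa24 was chosen after its values were seen. Defensin genes share near-identical sequence, so the values of single members are uncertain.

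**Figure D2:**
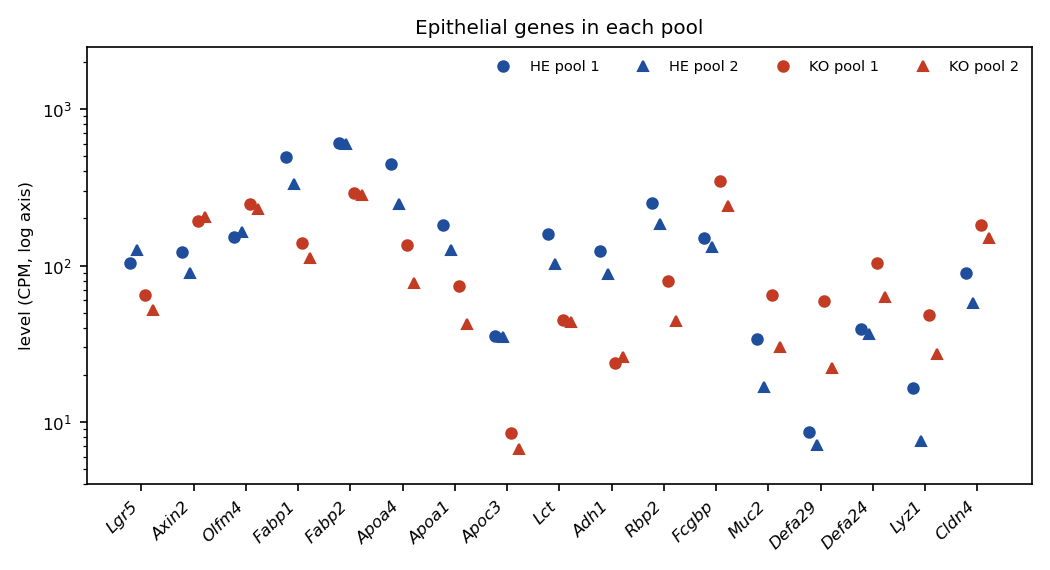
Levels in CPM (log axis) of epithelial genes in each pool, with HE in blue, KO in red, pools 1 as circles and pools 2 as triangles. The genes, called ones and markers, were picked after their values were seen. The 8 genes from Fabp1 to Rbp2 lie lower in both KO pools, while Fcgbp, Defa29, Defa24, Lyz1 and Cldn4 lie higher in both.

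Of the 18 tested enteroendocrine genes none was called, and 9 were higher and 9 lower (with the litter block 1 was called lower, Cpe). The tuft cell list was read at low level, with sums of 38.6 and 34.5 CPM in HE and of 17.8 and 20.8 CPM in KO. Its called member was Ptgs1, a cyclooxygenase that other cells express as well, with a mean of 15.6 ± 1.31 CPM in HE and of 3.73 ± 0.177 CPM in KO (-1.81, limma adjusted p = 0.0981).

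Wnt feedback was read from 16 tested targets, of which 12 were higher and 4 lower, with a median of 0.25. The only call was Axin2, which promotes degradation of beta-catenin and is induced by it, at 122.3 and 89.3 CPM in HE and at 192.65 and 204.9 CPM in KO (0.92, SE 0.17, limma adjusted p = 0.0795). Both KO pools lay above both HE pools, and with TMM scaling the difference was 0.87 and Axin2 was not called. The loss was not particular to Axin2, as 4 of the 15 genes called higher were called with TMM scaling. Ccnd1, a cyclin and the most abundant of the list, was at 168.55 and 219.95 CPM in HE and at 242.05 and 264.45 CPM in KO (0.39, limma adjusted p = 0.315). Of the 21 stem cell markers Lgr5 alone was called in this test, and 16 of them had a positive difference (median 0.37). With the litter block 3 others were called higher. Msi1, an RNA-binding protein of progenitors, was at 33.75 and 23.75 CPM in HE and at 47.15 and 46.85 CPM in KO (0.71, limma adjusted p = 0.222; 0.053 with the block).

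Epithelial identity was held by 24 tested genes, of which 19 were higher and 5 lower (median 0.26). With the litter block 2 were called higher. Cldn4, a tight junction protein, was called higher in both fits, with 90.15 and 57.55 CPM in HE and 182.3 and 149.7 CPM in KO (1.19, limma adjusted p = 0.0701). Of the 33 cell cycle genes none was called, and 23 were higher and 10 lower, with a median of 0.13. With the litter block 1 was called higher, Mcm2. Mki67 was at 1403.7 and 1717.5 CPM in HE and at 1537.5 and 1395.2 CPM in KO, and the genotypes overlapped. No gene was called among 24 immediate early genes (median -0.02), 17 p53 targets (0.12), 19 genes of cholesterol synthesis (0.16), 16 of glycolysis and hypoxia (0.36), 16 of the Notch pathway (0.26) or 8 of antimicrobial defence (-0.17). With the litter block 1 gene was called higher in each of the lists of immediate early genes (Atf3), p53 targets (Bax), glycolysis and hypoxia (Pfkl) and the Notch pathway (Jag2), and 1 of the Notch pathway lower (Notch3).

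**Figure D3:**
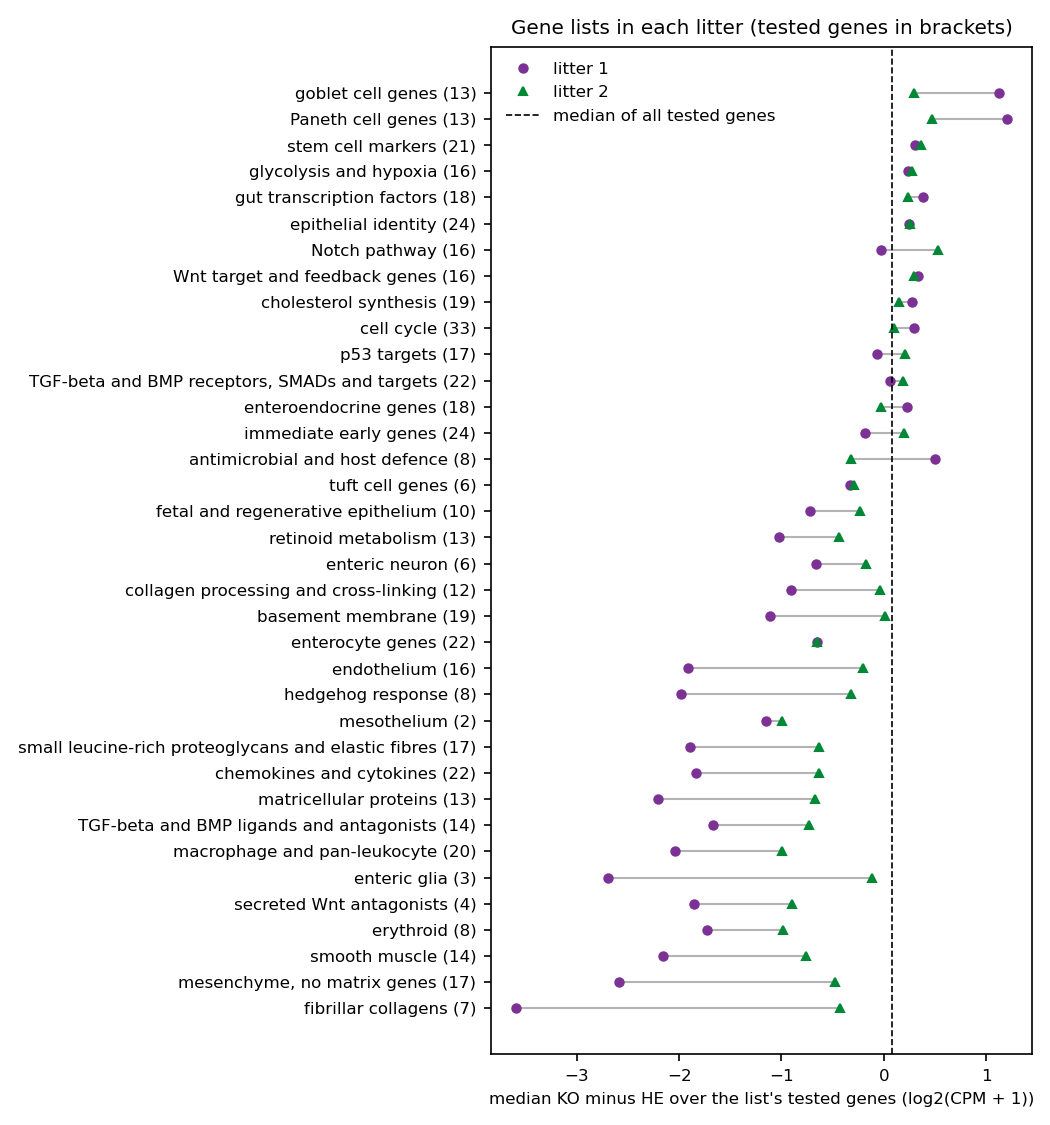
Median difference between KO and HE over the tested genes of each list, in litter 1 (circles) and litter 2 (triangles), on the log2(CPM + 1) scale, with the number of tested genes in brackets and the median of all tested genes as a dashed line. The lymphocyte list is not drawn. Enterocyte genes have a median of -0.65 in both litters, while fibrillar collagens have -3.60 in litter 1 and -0.43 in litter 2.

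Markers of mesenchyme and of several other cell types outside the epithelium had lower values in KO, with few calls. In a list of mesenchymal markers without matrix genes, 17 of 24 were tested, 17 of those were lower, 1 was called and 11 were called with the litter block (median -1.57; -2.59 in litter 1 and -0.48 in litter 2). Hand1, part of these counts and the median, reached 1 CPM only in the HE pools, so the filter fixed its direction. The summed level of the 24 genes was 505 and 250 CPM in HE and 75.8 and 167 CPM in KO, the most abundant was Vim, and Barx1 was at 0 in all pools. Nkx2-3, a homeobox factor of gut mesenchyme, was the called gene, at 18.85 and 14.65 CPM in HE and at 1.95 and 2.4 CPM in KO (-2.48, limma adjusted p = 0.0674). The part of such cells in the differences of other genes was not tested.

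Smooth muscle genes summed to 694 and 707 CPM in HE and to 152 and 387 CPM in KO. All 14 were tested, all were lower, none was called and 10 were called with the litter block (median -1.46). The most abundant was Myh11, the smooth muscle myosin, at 181.85 and 216.9 CPM in HE and at 36 and 100.85 CPM in KO (-1.70, limma adjusted p = 0.102; 1.01e-20 with the block). Their part in the result was not tested.

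Genes of macrophages and other leukocytes summed to 240 and 139 CPM in HE and to 44 and 69.4 CPM in KO. Of the 20 tested 19 were lower, 2 were called and 9 were called with the litter block (median -1.37), and no gene of the list was at 0 in all pools. C1qa, C1qb, C1qc, Fcgr3, Cx3cr1 and Spi1 reached 1 CPM only in the HE pools. The filter therefore fixed their lower direction, and they are part of these counts and of the median. Ctss, a lysosomal protease and the most abundant, was at 47.05 and 23.75 CPM in HE and at 4.25 and 8.75 CPM in KO (-2.27, limma adjusted p = 0.0701). Mrc1, the mannose receptor, was at 19.6 and 11.65 CPM in HE and at 1.15 and 2.8 CPM in KO (-2.50, limma adjusted p = 0.0795). The complement gene C1qb, a defining marker of tissue macrophages, was at 5.5 and 4.55 CPM in HE and at 0 and 0.4 CPM in KO. Their part in the result was not tested.

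The erythroid list summed to 1181 and 1062 CPM in HE and to 306 and 491 CPM in KO, the highest level of the lists of other cells. Of 8 tested genes 3 were called lower (4 with the litter block; median -1.43). Hbb-bs, an adult beta globin and the most abundant, was at 710.85 and 676.45 CPM in HE and at 194.55 and 297.4 CPM in KO (-1.52, SE 0.18, limma adjusted p = 0.0213). Hba-a1 was at 133.25 and 104.45 CPM in HE and at 36 and 50.05 CPM in KO (-1.45, limma adjusted p = 0.0411). Globin genes share near-identical copies, which counting can split, and the part of red cells in the result was not tested.

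**Figure D4:**
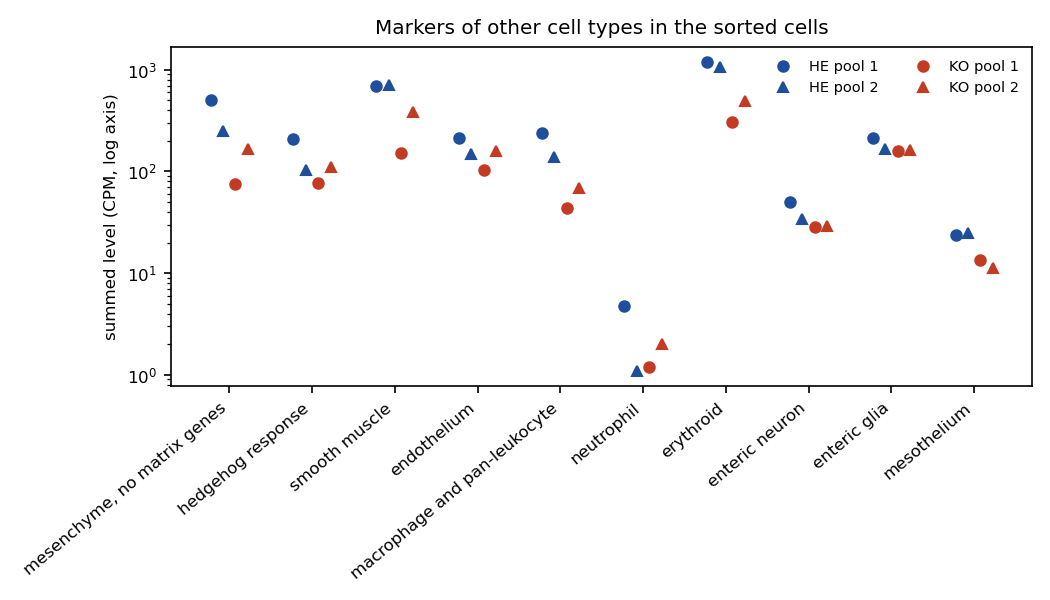
Summed CPM (log axis) of marker lists of other cell types in each pool, with HE in blue, KO in red, pools 1 as circles and pools 2 as triangles. The lymphocyte list, in which the genotypes overlapped, is not drawn. The smooth muscle, macrophage and pan-leukocyte, mesenchyme and erythroid sums lie lower in KO, with no overlap of the genotypes, while the enteric glia sum in KO (159 and 163 CPM) lies just under HE pool 2 (166 CPM).

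In the other lists of this kind none of the tested genes was called. Lymphocyte genes summed to 19.8 and 12.2 CPM in HE and to 12.3 and 15.2 CPM in KO, with overlapping genotypes. Of 2 tested, 1 was higher and 1 lower (median -0.28, with -0.78 in litter 1 and 0.22 in litter 2). Endothelial genes summed to 211 and 149 CPM in HE and to 103 and 159 CPM in KO, and the genotypes overlapped. The most abundant was Ramp2, Sox17 and Sox18 were at 0, and none of 16 tested was called (median -1.02; 3 lower with the litter block). Hedgehog response genes summed to 210 and 104 CPM in HE and to 77.5 and 110 CPM in KO, with overlapping genotypes. Ptch1 was the most abundant of them, and none of 8 was called (3 lower with the block). Their median was -1.03, with -1.98 in litter 1 and -0.32 in litter 2. Enteric neuron genes summed to 50.5 and 33.7 CPM in HE and to 28.1 and 29.1 CPM in KO, with Phox2a the most abundant, Dbh at 0 and none of 6 called (median -0.56). The glial sum was 215 and 166 CPM in the HE pools, most of it Erbb3, which epithelium expresses too, and S100b, Gfap and Foxd3 were at 0 (none of 3 called, median -1.40). Ednrb, an endothelin receptor, was at 86.25 and 42.9 CPM in HE and at 10.75 and 24.65 CPM in KO and was called lower with the block. Mesothelial genes summed to 23.7 and 24.9 CPM in HE and to 13.5 and 11.2 CPM in KO, with Upk3b the most abundant and Msln and Bnc1 at 0 (none of 2 called). The neutrophil list was not tested, with sums of 4.8, 1.1, 1.2 and 2 CPM in HE pools 1 and 2 and KO pools 1 and 2, Mmp9 its most abundant gene and S100a8 and S100a9 at 0. The part of these cells in the result was not tested.

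Matrix genes were split by class. Of 7 tested fibrillar collagens 1 was called lower and 5 with the litter block (median -2.02), and their sum was 1653 and 669 CPM in HE and 145 and 419 CPM in KO. The basement membrane list, which holds proteins that epithelium also secretes, had a median of -0.59, with -1.11 in litter 1 and 0.01 in litter 2. None of its 19 tested genes was called, and 7 were called lower with the block. Its most abundant gene Lamc1, a laminin chain, was at 156 and 102.4 CPM in HE and at 129.1 and 138.2 CPM in KO, with overlapping genotypes, while Col4a1 was at 146.6 and 64.6 CPM in HE and at 14.95 and 53.6 CPM in KO (-1.74, limma adjusted p = 0.182; 6.9e-15 with the block). Of 13 matricellular genes 1 was called lower, Fn1, and 8 with the block (median -1.31). Of 17 small leucine-rich proteoglycans and elastic fibre genes none was called and 9 were lower with the block (median -1.23), and of 12 genes of collagen processing and cross-linking none was called and 4 were lower with the block (median -0.57). Plod2, the most abundant of the last, was at 78.4 and 79.2 CPM in HE and at 93.85 and 98.1 CPM in KO.

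Most tested genes of some lists of secreted signals had lower values, with few calls. Of 22 tested chemokines and cytokines 3 were called lower and 1 higher (9 lower and 1 higher with the litter block; median -1.28). Ccl9, the gene called higher, was at 19.6 and 21.2 CPM in HE and at 75.45 and 40.9 CPM in KO (1.40, limma adjusted p = 0.0909). Cxcl10 was at 96.4 and 48.95 CPM in HE and at 13.05 and 19.1 CPM in KO (-2.05, limma adjusted p = 0.0656). The neutrophil attractant Cxcl1 was at 362.1 and 128.15 CPM in HE and at 57.45 and 63.15 CPM in KO (-1.82, limma adjusted p = 0.0909), and the eosinophil attractant Ccl11 at 40.8 and 19.7 CPM in HE and at 5 and 4.8 CPM in KO (-2.32, limma adjusted p = 0.0677). Ccl25, a chemokine of the small intestinal epithelium and the most abundant of the list, was at 154.4 and 234.05 CPM in HE and at 167.35 and 157.25 CPM in KO and was not called. Of 14 tested ligands and antagonists of TGF-beta and BMP 13 were lower and 1 was called (7 with the litter block; median -1.32), while of 22 receptors, SMADs and targets 15 were higher and none was called (1 higher with the block; median 0.10). All 4 tested secreted Wnt antagonists were lower, none was called and 2 were with the litter block (median -1.41). Sfrp2, part of this count and median, reached 1 CPM only in the HE pools, so the filter fixed its direction. Of 10 genes of fetal and regenerating epithelium 8 were lower and none was called (1 lower with the block, median -0.50). The summed level of the fetal list was higher in KO (541 and 428 CPM) than in HE (473 and 329 CPM), most of it Cyr61 (0.42, not called), with overlapping genotypes.

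Among the largest falls outside the lists, Trem1, a receptor of myeloid cells, was at 7.1 and 5.05 CPM in HE and at 0 in both KO pools. Its HE mean was 5.1-fold the level of 3 reads in KO pool 2, with no allowance for counting error in HE. Trem1 passed the filter through the HE pools alone, which fixed its direction. Rgs5, a gene of pericytes, was at 21.2 and 17.2 CPM in HE and at 1.55 and 4.8 CPM in KO (-2.39, limma adjusted p = 0.0825). Thbd, a thrombin receptor of vessels and leukocytes, was at 18.05 and 11.65 CPM in HE and at 0.8 and 3.2 CPM in KO (-2.50, limma adjusted p = 0.0975). Ncam1, an adhesion protein of nerve and mesenchyme, had a mean of 54.8 ± 23.3 CPM in HE and of 11.8 ± 8.03 CPM in KO (-2.21, limma adjusted p = 0.0852). Among the rises outside the lists, the splicing factor U2af2 was at 90.95 and 88.3 CPM in HE and at 157.8 and 166 CPM in KO (0.85, limma adjusted p = 0.0677), and the ubiquitin ligase Rnf5 was at 43.15 and 42.9 CPM in HE and at 80.45 and 80.2 CPM in KO (0.89, limma adjusted p = 0.0825). In these rises the pools of a genotype lay close together.

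Some genes called only with the litter block moved unequally in the litters, while others, such as Lyz1 (1.49 in litter 1 and 1.70 in litter 2), moved alike. S1pr3, a receptor for sphingosine 1-phosphate, was at 28.25 and 13.65 CPM in HE and at 0.4 and 6.4 CPM in KO, with -4.38 in litter 1 and -0.99 in litter 2 (limma adjusted p = 0.147; 1.22e-06 with the block). The Wnt-binding protein Sfrp1 was at 54.1 and 30.8 CPM in HE and at 3.85 and 17.1 CPM in KO, with -3.51 in litter 1 and -0.81 in litter 2 (limma adjusted p = 0.129; 8.92e-10 with the block). In both genes KO pool 1 had the lowest and HE pool 1 the highest value. Among the rises of this kind, Pitx1, a homeobox factor, was at 4.75 and 5.55 CPM in HE and at 17.65 and 13.15 CPM in KO (1.40, limma adjusted p = 0.149; 0.0311 with the block). Cracr2a, a calcium sensor, was at 11.8 and 12.65 CPM in HE and at 42.55 and 24.65 CPM in KO (1.34, limma adjusted p = 0.112; 0.000715 with the block). Both KO pools exceeded both HE pools in these rises.

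Of the 72 genes called lower, 11 were pseudogenes (15.3%, beside 5.93% of all tested genes), whose reads can belong to near-identical parent genes.

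Organoids are grown from epithelium in gel without stroma, and give a level of each gene in such cultures, in a table normalized separately. The 30 organoid samples come from E17.5 embryos of the Lgr5-DTReGFP line, 18 of them Lgr5 WT and 12 Lgr5 KO. The WT samples were grown from 3 embryos and the KO samples from 2, so that many samples share an embryo. Organoids were cultured with Rspo1, Rspo2 or Rspo3 at 5 or 100 ng/ml, and had libraries made with another kit (with rRNA depletion). Of the 72 genes called lower at E16.5, 23 were under 1 CPM in all 30 organoid samples (31.9%), beside 8.04% of all tested genes and 0 of the 15 genes called higher. Among those named here, Nkx2-3, Ccl11, Thbd and Ncam1 had an organoid median of 0 CPM, whereas Fabp1 (88.2 CPM), Apoa4 (998 CPM) and Adh1 (1168 CPM) were well read there. In the 2 E18.5 HE samples, 13 of the 72 genes were under 1 CPM in both (18.1%, beside 7.85% of all tested genes). The fibrillar collagens summed to 58.8 and 65.9 CPM at E18.5, below each of the 4 pools of E16.5.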

How the data were processed

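RNA of GFP+ve sorted cells was extracted (miRNeasy Micro) and made into libraries (Ovation SoLo). Per the submitters' processing notes, reads were processed with Trimmomatic 0.36, STAR 2.5.3a and HTSeq 0.9.1 on GRCm38.p4. The authors deposited CPM of 52636 genes, rounded up to the next 0.05. Gene places came from GENCODE M21, in which 147 genes have no place and were kept as not on X or Y. Whole reads were recovered from the CPM steps (at least 99.91% of values given back exactly, 100% of values up to 20 reads within 0.1 of a whole read), and intervals and floors (3 reads) cover counting error only. A gene was tested if 2 or more pools reached 1 CPM, on log2(CPM + 1), a scale on which changes of low genes come out smaller, with limma 3.58.1 (R 4.3.3, eBayes with trend, Benjamini-Hochberg over all 17276 genes, X and Y included). The alternatives on recovered reads used edgeR 4.0.16 and DESeq2 1.42.0. The fits were tested on simulated data. Pools with the same number share a litter by the labels; deviations of same-litter pools from their genotype's mean correlated at -0.0324 across genes. Embryos of a pool were not separate samples, and p-values without the block rest on 2 residual degrees of freedom and 8.54 of the prior over genes, those with the block on 1 and a variance taken from all genes. Replicate pools differed beyond sampling noise. Named genes are the 12 largest called rises and falls, called or largest-changing members of each list (up to 3, with the most abundant) and the 8 largest rises and falls called only with the litter block at a mean of at least 10 CPM, of which a part is described; unnamed gene models (Gm, Rik and -ps symbols) were left out of the first and last of these. Any other gene named, apart from the fixed markers, was chosen after its values were seen. The samples, lists and rules were chosen with earlier results of these data known. Tables and plots were made in Python 3.11.15.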

Additional observations from a re-analysis of the deposited data

How the results depend on the processing

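The count of 87 called genes (15 higher, 72 lower) moved with most settings. With the litter as a block, which uses the pairing of pools, limma called 795 (265 higher, 530 lower), and edgeR called 679 (166 and 513). Without the block, edgeR called 298 (51 and 247), voom weights 295 (74 and 221), median scaling 302 (51 and 251), a mean of at least 10 CPM 190 (57 and 133), a pseudocount of 5 169 (37 and 132), X and Y left out before the fit 139 (29 and 110), and 1 fit of all 15 sorted-cell libraries 1220 (606 and 614, with 71 of the 87 among them). The fit of 15 takes its variance also from libraries of other ages, gut regions and lines. A pseudocount of 0.1 gave 2 genes (0 higher, 2 lower, in limma, with 2107 at an unadjusted p under 0.05) and a false discovery rate of 0.05 with no fold limit gave 11 (0 higher, 11 lower). With every gene that has a nonzero pool tested, limma called 0 genes (0 higher, 0 lower; 2639 at an unadjusted p under 0.05), while edgeR and DESeq2 with the usual filter called 298 and 112. The genes called higher were 4 with TMM scaling and 9 in DESeq2. The cause was not tested.

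Leaving out 1 pool gave 0 to 6 called genes, 0 higher and 0 to 6 lower, in limma; 2120 genes had an unadjusted p under 0.05 without HE pool 1, 2470 without HE pool 2, 775 without KO pool 1 and 1087 without KO pool 2. There the lone pool of a genotype is assumed to vary like the other genotype, and fewer samples are fitted.

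Within litters, alternatives were chosen after seeing the data. With a mean of at least 10 CPM, which tests fewer genes, 864 genes were past 1.5-fold higher and 665 lower in litter 1, and 960 higher and 511 lower in litter 2. A pseudocount of 5, which shrinks low genes, gave 1093 and 1534 in litter 1 and 1036 and 721 in litter 2. TMM scaling gave 2247 higher and 2239 lower in litter 2, and median scaling 2112 and 2575, with 2868 higher and 2670 lower in litter 1. Every gene with a nonzero pool gave 3589 higher and 4691 lower in litter 1. In litter 2 it gave 3358 higher and 4057 lower, which turned the balance there.

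Some differences, none of a called gene, changed sign when 1 pool was left out. The lowest and highest log2 differences over these 4 fits were -1.12 and 0.07 for Bambi, -0.53 and 0.07 for Ccl25, -0.69 and 0.03 for Chgb, -0.29 and 0.27 for Egr1, -0.15 and 0.03 for Epcam, -0.22 and 0.38 for Lamc1, -0.23 and 0.06 for Mki67, -1.74 and 0.19 for Nefm, -0.11 and 0.46 for Notch1, -0.29 and 0.14 for Phox2a, -0.67 and 0.15 for Ptch1, -0.14 and 0.13 for Ramp2, -0.88 and 2.42 for Retnlb and -0.20 and 0.01 for Smad4. With voom weights Egr1 was 0.01, and in DESeq2 Lamc1 was -0.01. The cause was not tested. Of 167 named genes 154 kept their direction and side of the threshold with TMM scaling and 13 were no longer called. With the block 59 more were called. Of the medians of 37 lists, 35 moved by less than the spread between pools with TMM scaling and 30 in DESeq2.

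With 2 pools a genotype and single reads worth up to 0.784 CPM, changes of genes near 1 CPM were hardly detectable.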
